A study of Mus musculus with 12 samples.

Results

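Ib neurons of the mouse cochlea at postnatal day 3 (P3) were taken as the cells that scored highest for 5 genes, Pcdh7, Itga8, Tgm2, Crym and Negr1. These are a protocadherin, an integrin alpha chain, a transglutaminase, the thyroid hormone binding protein mu-crystallin and an adhesion molecule of the immunoglobulin family. A kept cell had more than 1000 genes and less than 5% spike-in counts, and a neuron had a mean level above 1 (natural log of 1 plus counts per 10000) over Nefl, Nefm, Stmn2, Stmn3 and Ina. Levels were z-scored over the P3 neurons, and a cell belonged to a class when its mean z over the 5 genes of that class was above 0.3 and higher than for the other classes. The other sets were Amigo2, Cpne4, Kcns3, Igsf21 and Fgf1 for Ia, Ndst3, Hs3st2, Tmem100, Cygb and Flt3 for Ic, and Ngfr, Rph3a, Efna5, Prune2 and Lgmn for type II. By this rule 124 of 501 P3 neurons were Ib-scoring, out of 4226 cells kept in the whole series. The members were thus chosen by their measured levels of these genes, so the genes of the rule are described below and not tested.

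Cells came from PVcre;Ai14 mice, in which Cre driven by the parvalbumin gene switches on the tdTomato reporter, and red cells of the dissected spiral ganglion were sorted singly into 384-well plates for Smart-seq2, which reads full-length polyA RNA without molecule barcodes. Each plate is 1 sample and holds cells pooled from several animals. The 2 P3 plates (replicates 1 and 2) kept 376 and 125 cells, all of them neurons, with 303906928 and 147486480 counts. The 2 plates of the late embryonic stage E18.5, of the same genotype, kept 346 and 350 neurons and were classed by the same rule applied to their own neurons. Replicate numbers only name plates, and nothing in the labels says that they stand for separate litters. Classes were compared within plates, so p-values measure only how the class differences vary from plate to plate.

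Spiral ganglion neurons carry the signal of the hair cells to the brain. Type I neurons contact inner hair cells and are divided into Ia, Ib and Ic, which differ in calcium-binding proteins, in excitability and in where their fibres end on the inner hair cell. Type II neurons contact outer hair cells. Ia neurons are known for high calretinin (Calb2), Ib neurons for calbindin (Calb1) with some calretinin, and Ic neurons for Lypd1 and Pou4f1 with little calretinin.

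Ib-scoring cells made up 83 of 376 neurons in replicate 1 (22.1%, exact 95% binomial interval 17.98 to 26.6%) and 41 of 125 in replicate 2 (32.8%, 24.7 to 41.8%). The intervals cover counting error only. With z-scores made within each plate, 93 of 376 and 29 of 125 neurons were Ib-scoring, without the higher share in replicate 2. That scaling gives each gene the same mean in both plates and so evens out the shares. It therefore cannot decide whether replicate 2 held more such cells. The other classes held 113 and 20 Ia-scoring neurons in replicates 1 and 2, and in both together 111 Ic-scoring and 30 II-scoring neurons, and 103 neurons reached no class. The Ib score of the members ran from 0.31 to 1.39 (median 0.67), and 19 of them lay between 0.3 and 0.4. The 3 cells just inside the threshold scored 0.306, 0.313 and 0.318, and the 3 just outside scored 0.297, 0.297 and 0.282. A further 54 neurons scored highest for Ib without reaching 0.3. The threshold therefore cuts through a continuous range of scores. Whether the members form a separate group of cells was not tested.

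The runner-up class of a member was most often Ic (84 cells), then II (23) and Ia (17). In 31 members the second score also exceeded 0.3, and in 17 the lead was under 0.2. Depth was alike among the classes. Ib-scoring cells had a median of 901938 counts and 8892 genes, against 880360 and 9100 in Ia-scoring and 864242 and 9017 in Ic-scoring cells. A single member had fewer than 100000 counts (1598), and no member had reads of none of the 5 genes. Reads of all 5 genes were found in 59 members, of 4 in 51 and of 3 in 13, and 1 member had reads of only 1 of them.

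The 5 genes, as deposited counts summed per class and plate and scaled by library size to CPM, the usual per-library unit, with edgeR's TMM factors, describe what the rule chose. Crym stood at 487 and 560 CPM in Ib-scoring cells of replicates 1 and 2, against 281 and 299 in Ic-scoring and 160 and 199 in Ia-scoring cells. Tgm2 stood at 64.4 and 49.3 CPM, against 27.3 and 26.3 in Ic-scoring and 1.30 and 3.53 in Ia-scoring cells. Negr1 stood at 44.0 and 42.4 CPM, against 18.8 and 18.04 in Ic-scoring and 6.27 and 1.11 in Ia-scoring cells. Reads of Tgm2 were found in 78.2% of Ib-scoring, 63.1% of Ic-scoring and 10.5% of Ia-scoring cells, and in none of the 30 II-scoring cells. After every cell was thinned to 100000 counts, which left out 1 Ib-scoring and 1 Ic-scoring cell, these shares were 73.2%, 53.6% and 7.52%.

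When each gene was left out of the rule in turn and the classes were made again (levels here in CPM without TMM factors), the difference from Ic shrank or was not retained. Tgm2 was then 35.2 and 33.4 CPM in the Ib-scoring cells and 33.3 and 26.1 in the Ic-scoring cells. Pcdh7 was 45.7 and 35.3 CPM against 44.1 and 55.5, and Negr1 was 22.8 and 24.2 CPM against 25.2 and 22.7. Itga8 was 44.0 and 41.5 CPM against 43.0 and 36.2, and Crym was 313 and 363 against 339 and 296. In each gene the plates of one class lay within or close to the range of the other. Ia-scoring cells remained lower in all 5 genes, with Tgm2 at 1.14 and 3.21 CPM and Itga8 at 11.5 and 20.3 CPM. In these cells the 5 genes thus marked Ib and Ic neurons together as opposed to Ia, and did not clearly single out Ib from Ic. These levels were not tested. For this reason the members are called Ib-scoring neurons throughout.

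**Figure D1:**
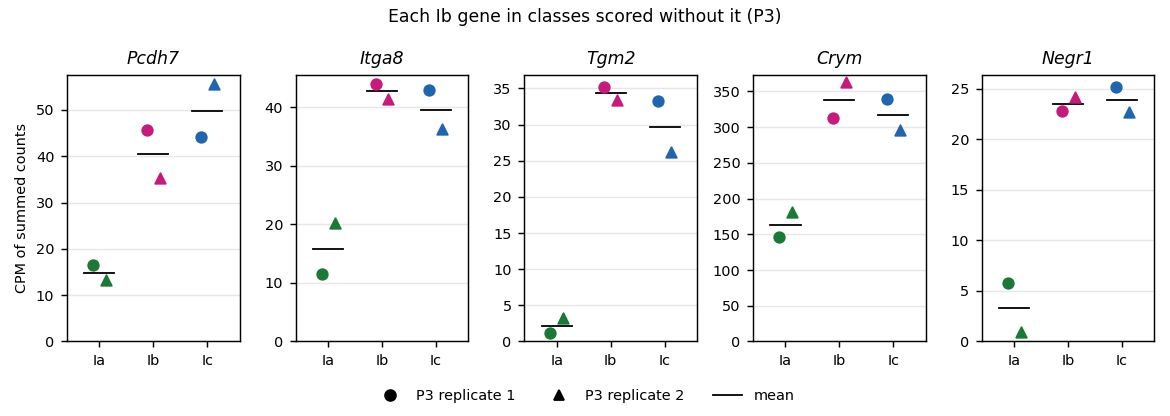
Level of each of the 5 Ib genes (CPM of counts summed over the cells of a class) in Ia-, Ib- and Ic-scoring neurons at P3 when that gene itself was not used for scoring. Points are the 2 plates and lines their mean. Ib- and Ic-scoring cells lie at like levels, for example 313 and 363 against 339 and 296 CPM for Crym, and Ia-scoring cells lie lower in every gene.

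Genes outside the rule that are known for the 3 type I classes placed the members as follows, in the comparison of class sums with edgeR's quasi-likelihood test with plate as a block and Benjamini-Hochberg adjustment over 16441 genes. The E18.5 plates entered the same fit to share the estimate of the spread. The paper took its P3 data from an earlier study that described the classes at this age. These genes are therefore no outside check of the label. Calb1, which encodes the calcium buffer calbindin, was at 753 and 680 CPM in Ib-scoring cells, 473 and 376 in Ic-scoring and 50.8 and 76.1 in Ia-scoring cells. The Ib-scoring plates were the highest of the 3 classes, 11.4-fold over Ia (log2 fold change 3.51 ± 0.27 SE, edgeR adjusted p = 5.16e-05). The difference from Ic, 0.75 ± 0.24 on the log2 scale, did not pass the test (edgeR adjusted p = 0.435).

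Calb2, which encodes the calcium buffer calretinin, was at 1280 and 1317 CPM in Ib-scoring cells, between Ia-scoring (4774 and 4949) and Ic-scoring cells (651 and 384). It was 3.75-fold lower than in Ia (log2 fold change -1.91 ± 0.20 SE, edgeR adjusted p = 0.000284). Against Ic the log2 fold change was 1.36 ± 0.20 with no overlap of plates, and missed the threshold (edgeR adjusted p = 0.0967). Spp1, which encodes osteopontin, followed the same order with 8870.1 and 9625 CPM in Ib-scoring, 12450 and 13487 in Ia-scoring and 6572 and 6580 in Ic-scoring cells.

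Runx1, a transcription factor known to set identities among somatosensory neurons, was at 310 and 253 CPM in Ib-scoring cells and 26.8 and 25.9 in Ia-scoring cells, which is 10.7-fold higher (log2 fold change 3.41 ± 0.13 SE, edgeR adjusted p = 5.09e-07). Ic-scoring cells had 281 and 277 CPM, within the range of the Ib-scoring plates. Lypd1, a membrane-anchored protein of the Ly6 family, was at 163 and 175 CPM in Ib-scoring, 5.07 and 12.03 in Ia-scoring and 179 and 215 in Ic-scoring cells. Ib- and Ic-scoring cells hence shared both genes and Ia-scoring cells had little of either.

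Pou4f1, a POU homeodomain factor of sensory neurons, was at 147 and 131 CPM in Ib-scoring, 4.00 and 1.11 in Ia-scoring and 266 and 300 in Ic-scoring cells. Mgat4c, a glycosyltransferase, was at 23.2 and 24.7 CPM in Ib-scoring, 0.34 and 0 in Ia-scoring and 48.5 and 57.8 in Ic-scoring cells. Both lay between the other classes in each plate. Both rose against Ia (log2 fold change 5.60 and 6.61, edgeR adjusted p = 4.91e-05 and 5.81e-05), and neither passed against Ic (edgeR adjusted p = 0.424 and 0.435).

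Gata3, a zinc finger factor of the auditory lineage, was at 70.5 and 66.1 CPM in Ib-scoring and 214 and 223 in Ia-scoring cells, a fall by 1.68 ± 0.11 on the log2 scale (edgeR adjusted p = 2.26e-05). Prph, which encodes the intermediate filament peripherin, was at 16.1 and 4.38 CPM in Ib-scoring and 184 and 88.4 in Ia-scoring cells (log2 fold change -3.93 ± 0.31, edgeR adjusted p = 5.81e-05). Of the 15 genes checked for the label, 7 rose and 3 fell against Ia (66.7%, against 4.87% of all genes) and 5 did not pass. Among those 5 were Prox1, Cdh23, Cdh9 and Plk5, with edgeR adjusted p between 0.178 and 0.526. Cdh9, a cadherin, was at 92.4 and 114 CPM in Ib-scoring, 152.5 and 206 in Ia-scoring and 51.6 and 19.5 in Ic-scoring cells. The calls of Epha3 and Grm8 did not outlast leaving out single plates, with edgeR adjusted p up to 0.170 and 0.151.

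**Figure D2:**
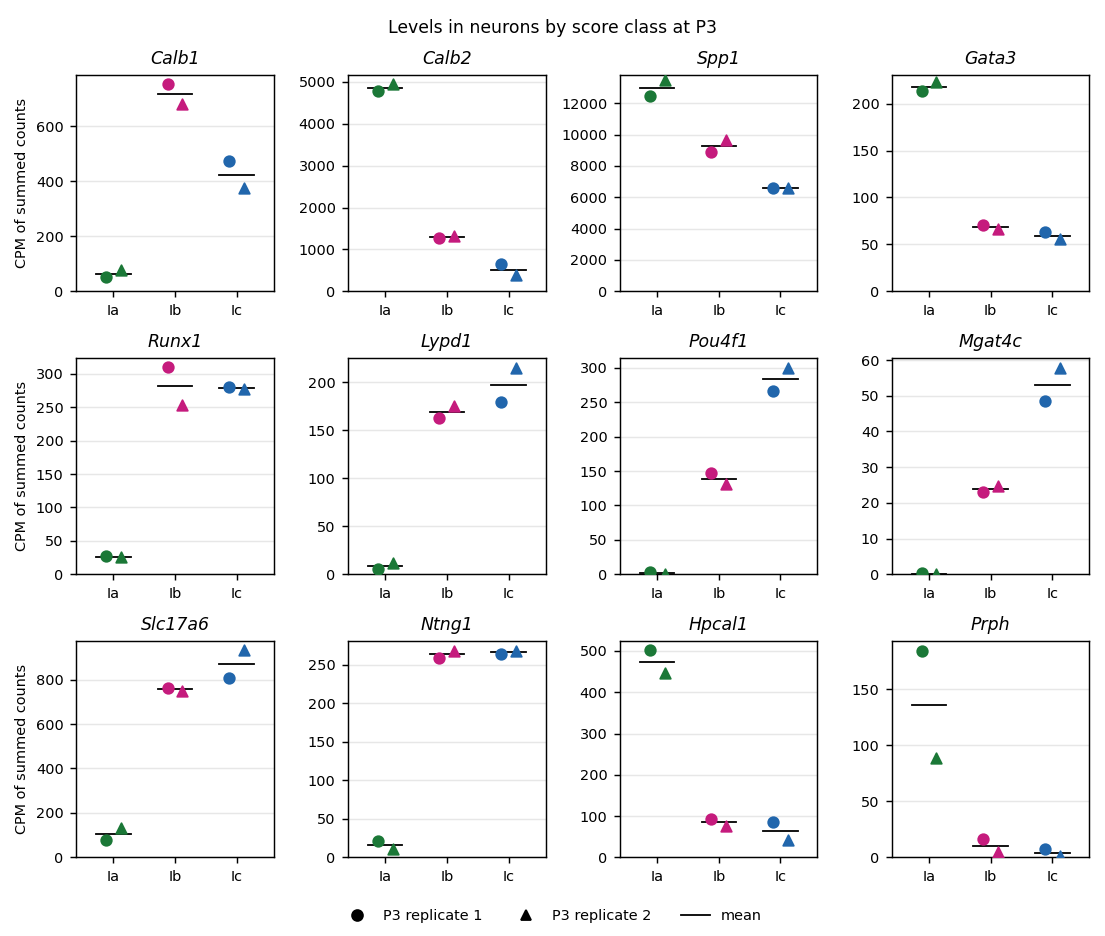
Levels (CPM of summed counts, axes from 0) of 12 genes outside the scoring rule in Ia-, Ib- and Ic-scoring neurons at P3, with 1 point per plate and a line at the mean. Calb2 and Spp1 step down from Ia over Ib to Ic, Pou4f1 and Mgat4c step up, Calb1 is highest in Ib at 753 and 680 CPM, and Runx1, Ntng1 and Slc17a6 lie at like levels in Ib and Ic.

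In the mm10 build, annotated with GENCODE M21, Calb1 spans chr4:15881264-15908064 and Calb2 chr8:110137502-110168210. Runx1 spans chr16:92601466-92826149 and Lypd1 chr1:125867622-125913101. Pou4f1 lies at chr14:104461676-104467999, and the long non-coding RNA gene D130009I18Rik, described below, lies on the same chromosome at chr14:104612791-104966783. Of the genes of the rule, Pcdh7 spans chr5:57717967-58133230, Itga8 chr2:12106632-12301922, Tgm2 chr2:158116402-158146436, Crym chr7:120186380-120202111 and Negr1 chr3:156561794-157316445. Counts were summed over whole genes, so no isoform or exon can be told apart.

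The core sequence bound by RUNX factors (TGTGGT, or ACCACA on the other strand) was looked up in the 250 bases upstream of the start of each gene in a RefSeq table (GRCm38.p6), which for some genes lies inside the GENCODE span, because Runx1 differed between the classes. It was held by 28 of 334 genes higher in Ib than Ia that had a sequence (8.38%), 27 of 269 lower ones (10.0%), 1278 of 12056 tested genes (10.6%) and 3825 of 27025 promoters in all (14.2%). The share among genes that moved was thus no higher than among all genes tested. Shown are 2 of the named genes that hold the core and whose upstream sequence ends at the start of the GENCODE gene or less than 10 bases before it. Arhgap25, which fell against Ia, also met these terms and is not shown. The sequences run 5′ to 3′ on the strand of the gene with the core in capitals. They belong to Spp1, which differed from both Ia and Ic (chr5:104434861-104435110, plus strand), and Mgat4c (chr10:101681237-101681486, plus strand), which rose against Ia.
Spp1: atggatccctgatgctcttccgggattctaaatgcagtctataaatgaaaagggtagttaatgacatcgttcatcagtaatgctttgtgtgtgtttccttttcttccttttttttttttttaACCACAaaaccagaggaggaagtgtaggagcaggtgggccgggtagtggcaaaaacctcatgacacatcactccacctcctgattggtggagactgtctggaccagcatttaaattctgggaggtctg
Mgat4c: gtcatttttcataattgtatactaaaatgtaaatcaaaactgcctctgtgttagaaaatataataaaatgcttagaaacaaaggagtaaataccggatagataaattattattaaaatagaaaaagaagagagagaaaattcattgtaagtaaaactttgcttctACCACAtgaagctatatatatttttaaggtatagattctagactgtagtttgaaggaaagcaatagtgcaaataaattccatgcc
A match of these letters describes the sequence and is not a bound site.

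Against Ia-scoring neurons, 800 of 16441 genes outside the rule were called (4.87%), 442 higher and 358 lower in the Ib-scoring cells (2.69% and 2.18%). The count depended on the plates in the fit. It was 1626 without P3 replicate 1, and 322 and 326 without one or the other E18.5 plate. Genes are named by a fixed rule, and the lists were chosen with earlier results of these data known. Of the 81 named genes called against Ia, 43 were called under every alternative, and the gene groups below are illustrated with these unless stated. Since the cells were classed on their own expression and then compared, p-values between the classes are smaller than for classes made independently.

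Calcium handling differed in 9 of 29 listed calcium-binding genes, 6 higher and 3 lower (31.0%, against 4.87% of all genes, median log2 fold change 0.12 against 0.004). Beside Calb1 and Calb2, the neuronal calcium sensor Hpcal1 was at 93.6 and 76.8 CPM in Ib-scoring and 502 and 446 in Ia-scoring cells, 5.60-fold lower (edgeR adjusted p = 3.07e-05). Necab1, an EF-hand protein, was at 43.6 and 27.0 against 255 and 188 CPM, 6.41-fold lower (edgeR adjusted p = 0.000226). Ryr3, a calcium release channel of the endoplasmic reticulum, was at 37.5 and 24.3 against 1.86 and 1.11 CPM, 20.6-fold higher (edgeR adjusted p = 2.26e-05). Calcium buffers and sensors therefore moved in both directions.

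Among transcription factors and their partners 9 of 67 were higher and 8 lower (25.4%, against 4.87% of all genes, median log2 fold change 0.00). Runx1 and Pou4f1 rose as above, and Gata3 fell. The retinoid receptor Rxrg fell from 84.3 and 80.9 CPM in Ia-scoring to 5.46 and 3.19 in Ib-scoring cells, 20.2-fold (edgeR adjusted p = 0.000300). Id1, Id2 and Id3, inhibitors of basic helix-loop-helix factors, were all among those called lower.

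Potassium and HCN channels held 6 genes higher and 3 lower of 43 (20.9%, against 4.87% of all genes, median log2 fold change 0.27). None of 31 sodium and calcium channel genes passed. At the share of all genes few calls would fall in a list of that length, so this says little about these channels. Kcnd2, an A-type channel subunit, was at 34.9 and 28.3 CPM in Ib-scoring and 3.31 and 2.03 in Ia-scoring cells, 11.97-fold higher (edgeR adjusted p = 6.30e-05). Kcnn1, a calcium-activated channel, was at 82.7 and 63.2 against 22.0 and 13.7 CPM, 4.12-fold higher (edgeR adjusted p = 0.000571). Kcnc4, of the fast delayed rectifier family, went the other way with 0.73 and 0.27 against 18.8 and 15.7 CPM, 39.9-fold lower (edgeR adjusted p = 0.000989). The auxiliary subunit Kcnab1 was 1.98-fold lower.

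Of 45 genes of vesicle release, 10 were higher and 3 lower (28.9%, against 4.87% of all genes, median log2 fold change 0.05). Slc17a6, the vesicular glutamate transporter VGLUT2, was at 763 and 749 CPM in Ib-scoring, 76.2 and 134 in Ia-scoring and 808 and 932 in Ic-scoring cells. It was 7.47-fold higher than in Ia (log2 fold change 2.90 ± 0.18 SE, edgeR adjusted p = 1.40e-05). The vesicle calcium sensor Syt1 and the membrane fusion protein Stx1a were 2.13-fold and 2.10-fold higher (edgeR adjusted p = 0.000284 and 0.00159). Among 59 transmitter receptor genes 4 were higher and 2 lower (10.2%, against 4.87% of all genes). The kainate receptor subunit Grik3 had no read in Ib-scoring cells and 14.2 and 11.8 CPM in Ia-scoring cells, at least 492-fold lower against a floor of 3 counts over both plates.

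Axon guidance genes were called in 17 of 63 (27.0%, against 4.87% of all genes), 12 higher and 5 lower, with a median log2 fold change of 0.13. The netrin-G family was split, as Ntng1 was at 258 and 268 CPM in Ib-scoring and 21.8 and 10.8 in Ia-scoring cells (16.2-fold higher, edgeR adjusted p = 2.22e-05), whereas Ntng2 was at 13.6 and 21.8 against 62.4 and 60.4 CPM (3.55-fold lower, edgeR adjusted p = 0.00161). The secreted repellents Sema3a and Slit2 and the membrane semaphorin Sema4d were 4.79-fold, 4.05-fold and 4.71-fold higher. Cell adhesion genes were called in 18 of 73 (24.7%, against 4.87% of all genes), 10 higher and 8 lower. The teneurin Tenm2 was at 38.4 and 16.3 against 1.86 and 2.03 CPM and the protocadherin Pcdh20 at 2.74 and 5.22 against 103 and 118 CPM.

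Trophic and growth factor genes were called in 7 of 49 (14.3%, against 4.87% of all genes, 4 higher and 3 lower, median log2 fold change -0.09). Fgf9, a ligand of fibroblast growth factor receptors, was 1.99-fold higher, and Smad6 and Smad9, an inhibitory and a receptor-regulated member of the BMP pathway, were lower. In the list of neuropeptides and Ly6 proteins 6 of 31 rose and none fell (19.4%, against 4.87% of all genes, median log2 fold change 0.32). Lypd6 was at 263 and 233 against 93.5 and 50.4 CPM and Ly6e at 423 and 708 against 197 and 226 CPM. In axon cytoskeleton and growth 4 of 25 rose and 3 fell (28%, against 4.87% of all genes, median log2 fold change 0.00). Gap43, a growth cone protein, was 1.80-fold higher (edgeR adjusted p = 4.02e-05), and Map1b, a microtubule-associated protein, had 4212 and 4001 against 5172 and 4766 CPM.

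**Figure D3:**
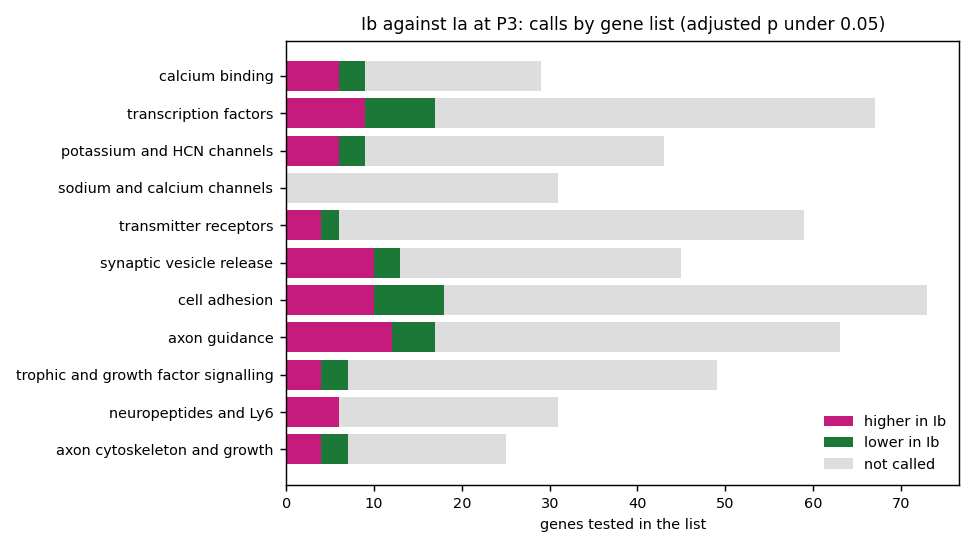
Number of tested genes in each list that were called higher (pink), called lower (green) or not called (grey) in Ib- against Ia-scoring neurons at P3, by edgeR adjusted p under 0.05. Axon guidance held 12 higher and 5 lower of 63, vesicle release 10 and 3 of 45, and the sodium and calcium channels none of 31. Over all genes tested 4.87% were called, so few calls would fall in a list of 31.

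The most divergent genes of all included some with roles outside these lists. D130009I18Rik was at 15.6 and 21.8 CPM in Ib-scoring cells, 0.037 and 0.097 in Ia-scoring and 49.3 and 63.1 in Ic-scoring cells (log2 fold change against Ia 8.32 ± 0.51 SE, edgeR adjusted p = 1.40e-05). Espn, an actin-bundling protein known from hair cell stereocilia, was at 22.7 and 35.2 CPM, 0.12 and 0.29 in Ia-scoring and 44.8 and 108 in Ic-scoring cells. Markers of hair cells are given below. Plcd4, a phospholipase C, was 18.7-fold higher than in Ia. Lower in the Ib-scoring cells were the adaptor protein Dok5, at 0.40 and 1.81 against 61.2 and 88.0 CPM, and Arhgap25, a GTPase-activating protein, with no read against 21.1 and 11.1 CPM (at least 683-fold lower).

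Markers of other cells were read beside these values, since sorted neurons can carry neighbouring material. Their sums are in CPM without TMM factors. The paper reported glial contamination and removed genes that correlated with Sox10, which was not done here. The 12 glia markers all had reads and summed to 6411 and 8099 CPM in Ib-scoring cells, below the 8121 and 11870 of Ia-scoring and the 7262 and 9077 of Ic-scoring cells. However, 2 of the 12 (16.7%, against 4.87% of all genes), Fabp7 and Apoe, were called higher than in Ia. The 9 otic mesenchyme markers summed to 201 and 209 CPM in Ib-scoring and 148 and 119 in Ia-scoring cells, with Col3a1 called higher and Prrx1, Tbx1 and Car3 at 0 in both. Of 6 blood genes none had a read in Ib-scoring cells. The 8 hair cell markers summed to 132 and 117 CPM in Ib-scoring and 117 and 97.1 in Ia-scoring cells. Of these, 2 were called (25%, against 4.87% of all genes), Cib2 higher and Cxcl14 lower. Atoh1, Pou4f3 and Gfi1 had no read in either class. Xirp2, an actin-binding protein, was at 2.37 and 3.25 CPM in Ib-scoring cells and had no read in Ia-scoring cells, and did not pass the test (edgeR adjusted p = 0.0623). Otof had 1 plate with reads in Ib-scoring cells, at 0.016 CPM, and none in Ia-scoring cells. Of 13 immediate-early and stress genes 4 were called higher than in Ia (30.8%, against 4.87% of all genes). Atf3, Jun and Junb lost the call when single plates were left out. Egr1, at 293 and 277 against 163 and 133.3 CPM, kept it under every alternative. The part of any of these marker and stress genes in the other differences was not tested. Leaving out the 10% of cells with most glia counts left the Ib against Ia count within 1.5 times of its value.

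Against Ic-scoring neurons, 2 of 16441 genes were called (0.0122%), 1 higher and 1 lower (0.00608% each), and none was higher or lower in Ib-scoring cells than in both Ia and Ic. Of these 2, Spp1 was 0.49 ± 0.04 higher on the log2 scale (edgeR adjusted p = 0.00103, up to 0.0922 when an E18.5 plate was left out). The other was the tachykinin gene Tac1, with 1 read in all Ib-scoring cells. Its 2284 reads in Ic-scoring cells came from 2 cells of replicate 1, of which 1 cell gave 79.1%, and the call was not made without either E18.5 plate (edgeR adjusted p up to 0.413).

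The low count does not show that the classes are alike. At an unadjusted p under 0.05 there were 1390 genes, and DESeq2 called 189 (113 higher, 76 lower). Without P3 replicate 1 edgeR called 462 (298 higher, 164 lower), with 1 sum left per P3 class. Without P3 replicate 2 it called 5, and without an E18.5 plate 0 in either case, with 2 residual degrees of freedom. On simulated counts with these plates and classes, 68.0% of genes changed 2-fold between Ib and Ic and 89.0% of those changed 4-fold were called. The changed genes were drawn only from those above a floor of mean counts, and each gene was given the spread of the overall trend. Genes with few counts or a wider spread were not covered, so these shares do not say how many real differences were missed. No gene of the listed functions other than Tac1 was called.

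Single cells showed that the Ib-scoring class was not uniform in the genes that separate Ia from Ic. Calb2 ran from 1.95 to 5632 CPM over the 124 members, with quartiles of 94.1, 1088 and 1838. The highest value came from the member with only 1598 counts, and the next highest member had 4900 CPM. In Ia-scoring cells the range was 1059 to 6979 CPM. A split at 300 CPM, set after the values were seen, put 84 members above (56 in replicate 1, 28 in replicate 2) and 40 below (27 and 13), and 15 members were within 2-fold of it. Above it lay all Ia-scoring and 34 of 111 Ic-scoring cells. The split ran through Ib- and Ic-scoring cells of both plates alike.

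All 40 members below the split had Pou4f1 above 30 CPM (lowest 70.5), as had 53 of the 84 above it. In the summed cells, in CPM without TMM factors, Pou4f1 was 292 and 270 CPM below the split and 66.1 and 59.8 above it. The same order was seen in Mgat4c (54.0 and 56.4 against 6.94 and 9.19 CPM), D130009I18Rik (45.1 and 65.2 against 0.84 and 1.98 CPM) and Lypd1 (214 and 200 against 121 and 145 CPM). The opposite order was seen in Calb1 (310 and 256 CPM below, 854 and 768 above) and Cdh9 (19.1 and 31.5 below, 112.9 and 133.2 above). Runx1 overlapped (316 and 203 below, 270 and 242 above). Of the 5 rule genes Tgm2 overlapped as well (57.4 and 45.6 below, 59.6 and 44.9 above), and the other 4 did not and went both ways. Crym (313 and 299.9 below, 503 and 597 above) and Itga8 (46.2 and 44.0 below, 79.5 and 64.2 above) were higher above the split. Negr1 (65.0 and 68.5 below, 29.5 and 27.1 above) and Pcdh7 (86.9 and 70.2 below, 59.0 and 44.5 above) were higher below it. The median Ib score, a mean over these 5 genes, was 0.64 above the split and 0.69 below it.

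Over the 124 members, which share 2 plates, the log2 level of Calb2 had a Pearson r of -0.78 with D130009I18Rik, -0.65 with Pou4f1, -0.64 with Mgat4c and -0.60 with both Prkar2b and Grxcr1, the lowest values among the 11002 genes read in at least 30 members. The highest were 0.59 with Cdh9, 0.59 with Pcp4, 0.57 with Ppl, 0.57 with Ppp1r27 and 0.55 with Kitl, and Calb1 had 0.52. Each of these had the same sign within both plates. They describe these cells only.

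**Figure D4:**
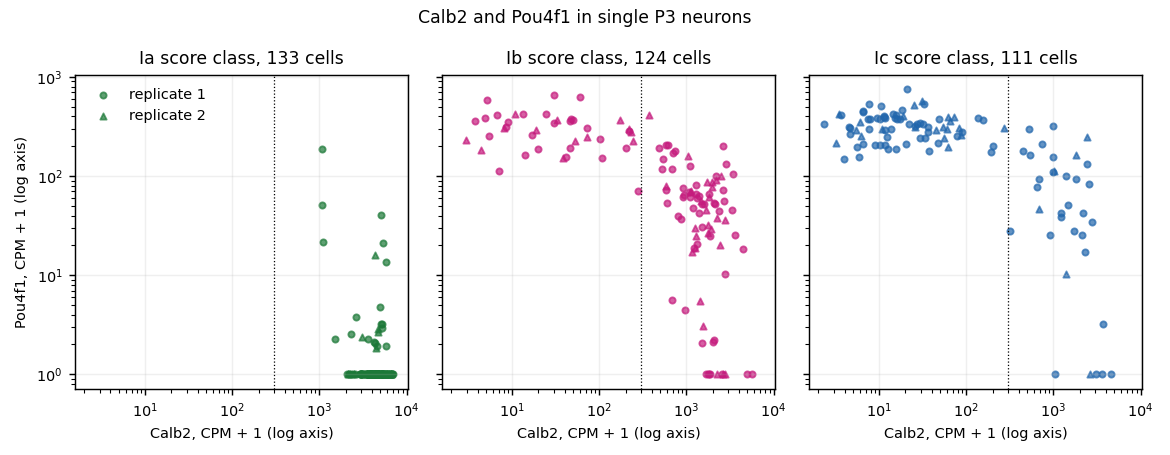
Calb2 against Pou4f1 (CPM + 1, log axes) in the single Ia-, Ib- and Ic-scoring neurons of P3, with a dotted line at the split of 300 CPM. Ia-scoring cells gather at high Calb2 with little Pou4f1, and the 124 Ib-scoring cells reach from there to the low Calb2 and high Pou4f1 of most Ic-scoring cells, with 84 to the right of the line and 40 to the left.

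Against II-scoring neurons 2018 genes were called (12.3%), 1198 higher and 820 lower (7.29% and 4.99%). This rests on 26 II-scoring cells of replicate 1, because replicate 2 had 4 and gave no sum. With 1 II-scoring sum at P3 there is no spread within that class, which is assumed to vary like the other sums in the fit. Runx1 was higher in Ib-scoring cells (log2 fold change 3.45, edgeR adjusted p = 2.59e-06), and Prph and Gata3 were lower (-5.06 and -3.00). Calb2 did not pass the test, with a log2 fold change of 0.00. The count fell to 891 and 908 without an E18.5 plate.

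At E18.5, where 60 and 54 neurons were Ib-scoring, the difference from Ia was already present in the genes known for the classes. Runx1 was at 306 and 248 CPM in Ib-scoring and 63.2 and 72.3 in Ia-scoring cells. Calb1 was at 132.7 and 161 against 14.8 and 23.7 CPM, and Calb2 at 250 and 432 against 1081 and 1234 CPM. Pou4f1 was at 175 and 119 against 9.55 and 19.6 CPM. All 4 passed at E18.5 (edgeR adjusted p between 4.82e-05 and 0.00114), with the signs seen at P3. Of the 800 genes called at P3, 669 had the same sign at E18.5 (83.6%, against 56.6% of all genes tested) and 215 were called the same way there. Both stages were classed with the same rule genes, and the part of the rule in this agreement was not tested. At E18.5 itself 450 genes were called against Ia (2.74%), 169 higher and 281 lower (1.03% and 1.71%), and 92 against Ic (0.56%), 43 higher and 49 lower (0.262% and 0.298%). Levels at the 2 stages are set side by side only, because stage and plate series coincide.

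The size of the Ib to Ia difference itself was tested between the stages within the one fit, and 105 genes were called (0.639%), 71 with a more positive and 34 with a more negative value at P3 (0.432% and 0.207%). Without either E18.5 plate no gene was called, without P3 replicate 1 there were 743, and at an unadjusted p under 0.05 there were 1859. Gata3 is one of them. At E18.5 it was at 360 and 293 CPM in Ib-scoring and 376 and 323 in Ia-scoring cells, a log2 fold change of -0.10, whereas at P3 it was -1.68 (difference -1.58, edgeR adjusted p = 0.00217). Hpcal1 went from 291 and 228 against 373 and 348 CPM at E18.5 to the P3 difference given above (difference -2.01, edgeR adjusted p = 0.00607). Grik3 had 5.57 and 9.43 against 10.3 and 11.7 CPM at E18.5 and no read in Ib-scoring cells at P3. Runx1 (difference 1.38) and Ntng1 (2.27) were further from Ia at P3. Depth differed between the stages, with a median of 327189 counts in Ib-scoring cells at E18.5 and 901938 at P3. The separation of the rule genes differed too. The log2 fold change of Ib over Ia at E18.5 and P3 was 0.49 and 2.04 for Itga8, and 1.95 and 2.01 for Pcdh7. The part of depth, plate series and class separation in the called genes was not tested. For the difference from Ic, 6 genes were called (0.0365%), 1 more positive and 5 more negative (0.00608% and 0.0304%), with 1298 at an unadjusted p under 0.05, 161 by DESeq2 and none without either E18.5 plate.

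**Figure D5:**
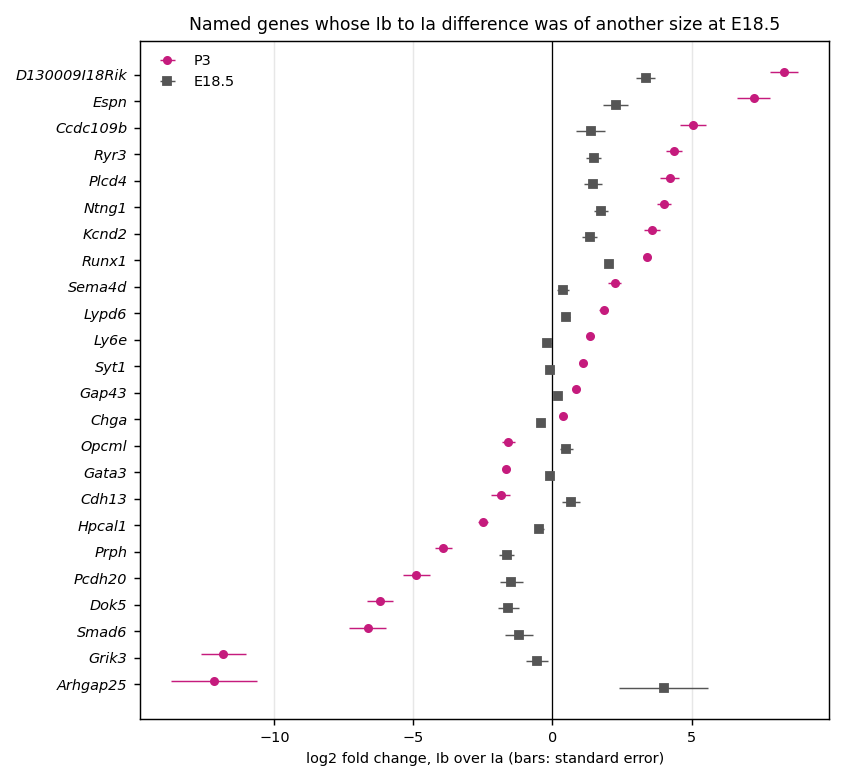
Log2 fold change of Ib- over Ia-scoring neurons at P3 (pink) and E18.5 (grey), with standard errors, for the named genes whose difference between the stages was called. Most lie further from 0 at P3, such as Gata3 at -1.68 against -0.10. Stage coincides with plate series and depth, whose part was not tested. Values beyond 10 in size, for Grik3 and Arhgap25, come from genes with no read in Ib-scoring cells at P3 and are no estimate of size.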

How the data were processed

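The deposited table gives read counts per gene and well for Smart-seq2 plates, mapped by the authors with STAR to mm10 (submitters' notes also name Scanpy), with 24489 genes and 92 ERCC sequences. All values were checked to be whole numbers, as deposited counts without normalization. A count rests on reads, not molecules, and whether strand was used is not given in the sources used here. A further 384 wells match no sample and were not used, nor was a deposited list of raw file names. Every cell name occurs on 1 plate, and no doublet caller was run.

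Members and gene lists were chosen with earlier results of these data known. Counts were summed per plate and class (at least 5 cells), giving 15 sums of the P3 and E18.5 plates. They were fitted with the quasi-likelihood test of edgeR 4.0.16 under R 4.3.3, after TMM scaling and edgeR's filter on low counts (filterByExpr). Plate was a block, with 5 residual degrees of freedom. The 25 genes of the rule were neither tested nor counted. A gene was called at an adjusted p under 0.05. The procedure was tested on simulated data. Plate differences of Ia, Ib and Ic sums correlated at r = 0.247 to 0.318 at P3 and -0.051 to 0.155 at E18.5. Plates are the sorting and library unit, which is where the pairing comes from.

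Named genes were, for Ib against Ia and Ib against Ic, the 10 higher and 10 lower called genes with the largest change (same direction in both P3 plates, at least 10 CPM in the higher class), up to 6 called members per list, and 15 genes that check the label. Exceptions named after their values were seen are the correlates of Calb2, Id1, Id2, Id3, Fabp7, Apoe and Col3a1. The result of 1 listed gene is not reported here. Shares have exact (Clopper-Pearson) intervals. Alternatives covered normalization, filter, block, test, plates left out, thresholds of the score and cell filters. Versions were python 3.11.15, numpy 2.4.6, pandas 2.3.3, scipy 1.17.1 and DESeq2 1.42.0.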

Additional observations from a re-analysis of the deposited data

Results flagged for a closer look

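The Ib to Ia difference of 24 named genes was of another size at P3 than at E18.5, by the test of that difference in edgeR. Depth and the separation of the rule genes also differed between the stages, as given above. The log2 fold change was more positive at P3, by the log2 value given, for D130009I18Rik 4.97, Espn 4.97, Ccdc109b 3.69, Ryr3 2.89, Plcd4 2.77, Ntng1 2.27, Kcnd2 2.24, Sema4d 1.85, Ly6e 1.55, Runx1 1.38, Lypd6 1.36, Syt1 1.17, Chga 0.79 and Gap43 0.66. It was more negative at P3 for Arhgap25 -16.16, Grik3 -11.28, Smad6 -5.43, Dok5 -4.61, Pcdh20 -3.42, Cdh13 -2.51, Prph -2.28, Opcml -2.08, Hpcal1 -2.01 and Gata3 -1.58. Their edgeR adjusted p lay between 0.0019 and 0.0414. Chga, a protein of secretory granules, was called in opposite directions, lower than in Ia at E18.5 (log2 fold change -0.40, edgeR adjusted p = 0.0125) and higher at P3 (0.39, edgeR adjusted p = 0.0070). The P3 call of Chga was not made without P3 replicate 1 or without either E18.5 plate. Ly6e and Syt1 had log2 fold changes below 0 at E18.5 that did not pass (-0.18 and -0.08) and were called higher at P3 (1.36 and 1.09). Cdh13 and Opcml, adhesion molecules anchored in the membrane, had positive log2 fold changes at E18.5 (0.65 and 0.49) and negative ones at P3 (-1.85 and -1.59), and their P3 calls were not made without an E18.5 plate (edgeR adjusted p up to 0.0771 and 0.0534). The Arhgap25 value rests on 0 reads in Ib-scoring cells at P3 and on under 1 CPM in every class at E18.5.

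The difference from Ic was of another size at P3 for Spp1 (0.46, edgeR adjusted p = 0.0263) and Tac1 (-10.46, edgeR adjusted p = 0.00172), the latter from 2 Ic-scoring cells. None of these differences was called when either E18.5 plate was left out.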

How the results depend on the processing

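With plate as a block the numbers of called genes were 800 against Ia, 2 against Ic, 2018 against II, and 105 and 6 for the differences between the stages from Ia and Ic. Without the replicate block they were 576 against Ia and 62 and 0 for the comparisons of stage with Ia and of class with Ic. DESeq2 gave 1500 against Ia, 189 against Ic, 431 and 161 between the stages, and 20 genes higher and 29 lower in Ib than in both others, where the main count was 0. With the P3 plates alone there were 379 against Ia, 1 against Ic and 1019 against II. With z scores made within each plate there were 376, 1, and 26 and 1 between the stages. Without the filter on low counts there were 12 against Ic, 185 and 16 between the stages, and 1 gene higher than in both. A score above 0.5 left 94 members, with 14 genes against Ic, 11 for the stage difference from Ic and 3 higher than in both. A lead of 0.2 gave 7 against Ic and 1 higher than in both, and leaving out the cells with most glia counts gave 4 and 1 lower than in both. Leaving out 1 plate moved the count between 322 and 1626 against Ia, 0 and 462 against Ic, 891 and 2594 against II, 0 and 743 and 0 and 258 between the stages, and 0 and 73 higher and 0 and 70 lower than in both. Leaving out a plate reduces the residual degrees of freedom to 2 or 3, and a lone sum is then assumed to vary like the others. Otherwise the cause was not tested. Without P3 replicate 1 there is no II sum. 86 values of named genes against Ic that passed neither under the design as reported nor under the alternative changed sign. No called named gene changed sign against Ia under any alternative, and 33 of 81 lost the call without an E18.5 plate and 18 without a P3 plate. The number of members lay between 94 and 142 over all thresholds and gene sets. Reads without molecule barcodes and 4 plates limit the precision.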

Other observations

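The 103 P3 neurons that reached no class resembled the Ib- and Ic-scoring cells in their median single-cell levels. Runx1 was at 205 CPM, against 264 in Ib-scoring, 252 in Ic-scoring and 0 in Ia-scoring cells. Lypd1 was at 128 CPM against 144.2, 173 and 0, and Calb1 at 500 against 561, 325 and 0.61. Calb2 ran from 0.55 to 8197 CPM in them, with a median of 1103 that is close to the 1088 of the Ib-scoring cells. The 8197 CPM came from a cell with only 1586 counts. Pou4f1 was at 123 CPM, between 73.3 in Ib-scoring and 263 in Ic-scoring cells. Their Tgm2 (10.4 CPM) was below that of the Ib-scoring cells (42.2), which the rule fixes.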
